A study of Mus musculus with 6 samples.

Results

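Dusp1, Dusp4, Dusp5, Dusp6, Spry1, Spry2, Spry4, Spred1, Spred2 and Spred3 encode brakes on the RAS-ERK cascade, and their transcripts were followed here in a mouse podocyte line that carries or is meant to lack Setdb2. The 10 genes were taken by name, as the rows of the count table that bear these symbols, and all 10 were found among 21719 genes. All 10 also passed the filter on low counts, which kept 13509 genes. MPC5 is an immortalised podocyte line, grown here in high glucose in every sample. The 6 RNA libraries form 2 groups: 3 labelled Setdb2WT (genotype WT, high glucose) and 3 labelled Setdb2KO (genotype KO, high glucose). How the gene was disrupted, how many clones were used and whether separate cultures gave the 3 libraries of each group are not stated in the labels, so the p-values measure the spread between these libraries, which may be technical. No group in another glucose concentration was analysed here.

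ERK is switched on by growth factor receptors through RAS, RAF and MEK, and the cell limits the signal with proteins whose genes ERK itself induces. DUSP proteins are phosphatases that remove both activating phosphates from MAP kinases. Sprouty proteins act near the membrane between receptor and RAF, and SPRED proteins bring neurofibromin, which inactivates RAS, to the membrane. In the developing kidney Sprouty1 is known for restraining GDNF-RET signalling in the ureteric bud.

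Promoter sequences are shown for Spry1, which had the largest change of the 10, for Dusp1, which had the highest level per kilobase, and for Dusp5, the only one of the 8 members with a listed promoter to hold a CArG box, the site bound by serum response factor. Each is the 250 bases before the annotated start in RefSeq, build GRCm38.p6, 5′ to 3′ on the gene's strand. Capitals mark matches to the motifs searched on both strands.
Spry1, chr3:37639697-37639946, plus strand: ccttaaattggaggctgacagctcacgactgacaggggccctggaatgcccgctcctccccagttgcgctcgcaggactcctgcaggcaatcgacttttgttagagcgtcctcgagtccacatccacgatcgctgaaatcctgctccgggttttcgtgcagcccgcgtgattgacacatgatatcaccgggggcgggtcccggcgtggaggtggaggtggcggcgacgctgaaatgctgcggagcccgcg
Dusp1, chr17:26508473-26508722, minus strand: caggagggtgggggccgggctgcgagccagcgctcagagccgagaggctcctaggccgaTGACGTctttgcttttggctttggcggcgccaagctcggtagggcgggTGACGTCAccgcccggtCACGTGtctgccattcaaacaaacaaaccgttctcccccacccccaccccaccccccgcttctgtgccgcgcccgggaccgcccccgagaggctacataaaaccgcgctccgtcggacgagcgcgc
Dusp5, chr19:53528895-53529144, plus strand: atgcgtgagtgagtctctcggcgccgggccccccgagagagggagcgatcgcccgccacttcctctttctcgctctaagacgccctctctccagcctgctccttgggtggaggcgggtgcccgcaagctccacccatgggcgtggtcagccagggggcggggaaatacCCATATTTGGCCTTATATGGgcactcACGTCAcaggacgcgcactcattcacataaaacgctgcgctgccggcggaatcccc
The motifs were TGACGTCA (the full cyclic AMP response element), the shorter TGACGT that lies within it, the CArG box, TGANTCA (AP-1), CCGGAAG (ETS) and CACGTG (E-box). The Dusp1 window held the full element at positions -143 to -136 from the start, TGACGT alone at -191 to -186, and an E-box at -126 to -121. TGACGTCA was present in 1.55% and CACGTG in 6.02% of 32851 promoter windows of the same length. The Dusp5 window held 2 CArG boxes side by side, at -82 to -73 and -72 to -63, and TGACGT on the other strand at -56 to -51. A CArG box was present in 1.47% and TGACGT in 6.47% of all windows. Spred2 held TGACGT as well, at -52 to -47 on the other strand. None of the 6 motifs was found in the windows of Spry1, Spry2, Dusp6, Spred1 and Spred3, and TGANTCA and CCGGAAG, present in 6.75% and 6.91% of all windows, were in none of the 8 windows searched. These matches describe letters only, and Dusp4 and Spry4 were not among the windows. The windows of Spry1, Dusp1 and Dusp5 were 62.4%, 68.4% and 64% GC, against a median of 52.4% over all windows. The shares of all windows given here are not matched for GC.

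Total counts were 36461449 to 37129174 reads per library. Setdb2 (Entrez 239122) was not lower in the KO-labelled libraries: its reads numbered 12, 10 and 9 with the WT label and 17, 15 and 25 with the KO label (log2 fold change 0.73, SE 0.38; adjusted p = 0.088 by edgeR's quasi-likelihood test, 0.043 under total-count scaling). The groups are therefore named by their labels, and each direction compares the KO-labelled with the WT-labelled libraries. Most genes differed between the groups: 83.8% of the genes tested passed edgeR's test, 41.5% higher and 42.3% lower, and in 84.6% the libraries of the groups did not overlap. A member that passes this test is therefore like most genes, and its size matters more than its call.

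The podocyte identity of the line was only partly visible. Wt1 was at 0.028 ± 0.028 CPM against 0.0087 ± 0.015 CPM (SD, n = 3 each; CPM is a gene's reads scaled to library size with edgeR's TMM factors) and Lmx1b at 0.019 ± 0.017 CPM against 0.017 ± 0.015 CPM. Of 12 podocyte markers found, 10 were tested, 4 higher and 5 lower, with a summed level of 1652 to 1653 CPM in the WT-labelled libraries and 1439 to 1520 CPM in the KO-labelled ones. Podxl, which encodes podocalyxin of the podocyte surface, went from 50.5 ± 1.6 to 4.96 ± 0.38 CPM. Marker lists of other kidney cells moved too. Of 6 parietal epithelium genes 5 were lower and 1 higher, with sums of 2731 to 2779 CPM against 900 to 956 CPM. Of 6 mesangial and smooth muscle genes 5 were lower and 1 higher, with sums of 121 to 127 CPM against 32.1 to 34.4 CPM, and Itga8, which marks mesangial cells, was below 1 CPM in both groups. All 3 tubule genes tested were lower (1084 to 1099 CPM against 424 to 447 CPM), with Aqp2 at or near 0. By group means, Cdh16 went from 498 to 292 CPM, Aqp1 from 468 to 51.7 CPM and Lrp2 from 126 to 95.5 CPM. Of 3 endothelial genes tested 2 were higher and 1 lower (10.3 to 12 CPM against 12.5 to 14.2 CPM), and Cdh5, Pecam1, Tek and Emcn were below 1 CPM. The fibroblast list came to 6.58 to 8.14 CPM against 1.59 to 2.33 CPM, its 1 tested gene being lower, and the immune list to 13.8 to 15.2 CPM against 9.80 to 12.2 CPM, with 1 of 2 tested genes higher and 1 lower. Their part in the results below was not tested, and in these bulk libraries fewer cells of a type cannot be told apart from less RNA per cell.

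All 10 members passed edgeR's quasi-likelihood test, 5 higher (Dusp4, Dusp5, Spry2, Spry4 and Spred3) and 5 lower (Dusp1, Dusp6, Spry1 and, not under total-count scaling, Spred1 and Spred2), against 83.8% of all genes tested. With total-count scaling the split was thus 5 higher and 3 lower. In 9 of the 10, all but Spred2, the groups did not overlap, against 84.6% of all genes. Their median log2 fold change was 0.11, beside 0.0045 over all genes tested. Against a limit of 1.5-fold, tested with edgeR's glmTreat, 3 members passed, Spry1 and Dusp1 lower and Dusp4 higher, where 45.4% of all genes passed, 22.3% higher and 23.1% lower. Total-count scaling moved the median of all genes by 0.15 on the log2 scale, and there Dusp1 did not pass the 1.5-fold limit. The plot of the members by library, drawn with TMM scaling, shows that each of the 3 families held genes that moved in opposite directions. In the Spred family the lower calls, those of Spred1 and Spred2, were lost under total-count scaling.

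**Figure D1:**
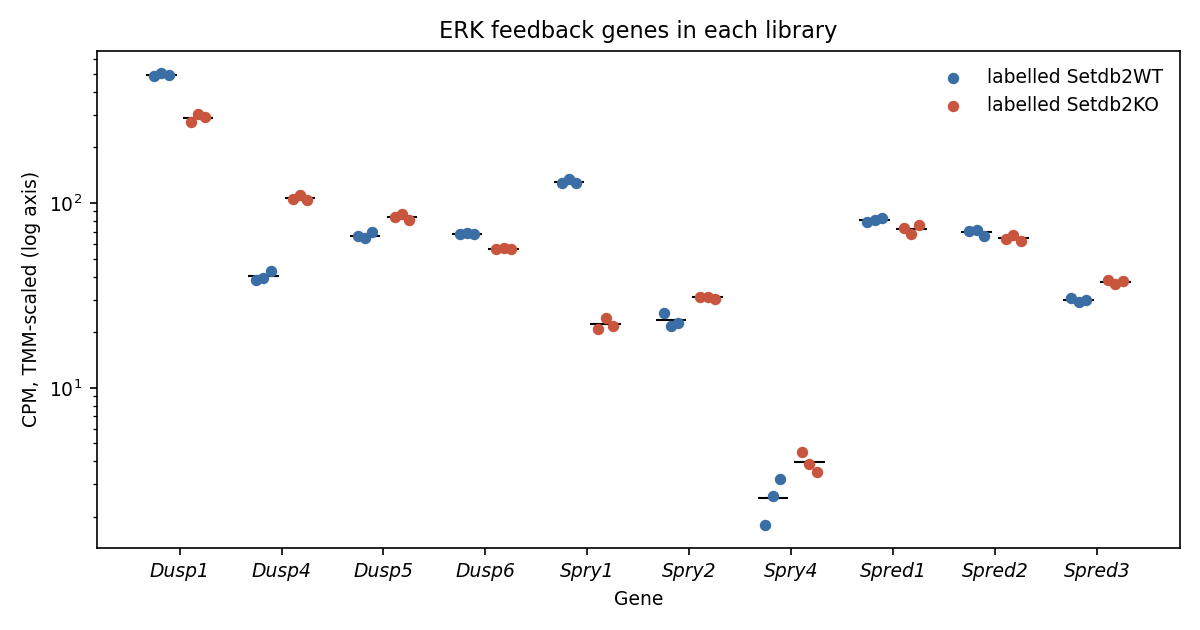
TMM-scaled CPM (log axis) of the 10 members in each of the 6 libraries; points are libraries, blue for those labelled Setdb2WT and red for those labelled Setdb2KO, and bars are means of 3. Spry1 drops from about 130 to 22.1 CPM and Dusp4 climbs from 40.2 to 107 CPM, while the Spred1 and Spred2 points of the 2 groups lie close together.

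Among the phosphatases, Dusp1 was the most abundant per kilobase of exon, and it was lower in the KO-labelled libraries. Dusp1 (Entrez 19252, chromosome 17) encodes a nuclear phosphatase, induced within minutes by growth factors and stress, that acts on p38, JNK and ERK. It stood at 486, 503 and 492 CPM in the WT-labelled libraries and at 275, 303 and 291 CPM in the KO-labelled ones. All 3 of the latter lay well below all of the former. The means were 494 ± 8.8 and 290 ± 14 CPM (SD, n = 3 each), a 1.70-fold fall (log2 fold change -0.77, SE 0.036; adjusted p = 7.0e-11, edgeR quasi-likelihood test).

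Dusp4 moved the other way and had the largest rise of the 10. Dusp4 (Entrez 319520, chromosome 8) encodes a nuclear phosphatase of the same subgroup as Dusp1. It stood at 38.5, 39.5 and 42.7 CPM in the WT-labelled libraries and at 105, 111 and 104 CPM in the KO-labelled ones, with no overlap. It rose 2.66-fold, from 40.2 ± 2.2 to 107 ± 3.6 CPM (SDs over 3 libraries; log2 fold change 1.41, SE 0.046; adjusted p = 1.6e-12 by edgeR). The ratio of Dusp1 to Dusp4 within a library was thereby 4.50-fold lower, with log2 ratios of 3.64, 3.66 and 3.51 against 1.38, 1.45 and 1.48. This within-library ratio depends on library scaling only through the small prior of 0.5 CPM, and its groups did not overlap (exact two-sided permutation p = 0.10, the smallest that 3 against 3 allows).

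The ERK-selective pair changed less, and in opposite directions. Dusp5 (Entrez 240672, chromosome 19), which binds and inactivates ERK in the nucleus, stood at 66.1, 64.4 and 69.4 CPM against 83.5, 87.5 and 80.9 CPM, a rise of 1.26-fold (log2 fold change 0.33, SE 0.043; adjusted p = 5.4e-06 by edgeR). Dusp6 (Entrez 67603, chromosome 10), its cytoplasmic counterpart and a common readout of FGF signalling, stood at 68.3, 68.5 and 67.7 CPM against 56.4, 57.0 and 56.6 CPM, a fall from 68.2 ± 0.41 to 56.7 ± 0.26 CPM (SDs over 3 libraries; log2 fold change -0.27, SE 0.037; adjusted p = 1.3e-05 by edgeR). Both genes kept their groups apart, with a spread between libraries of well under 10 CPM. The fall of Dusp6 was smaller under total-count scaling (log2 fold change -0.11; adjusted p = 0.013 by edgeR). The Dusp5 to Dusp6 ratio was 1.51-fold higher in the KO-labelled libraries, with log2 ratios of -0.033 ± 0.063 and 0.56 ± 0.052 (SD, n = 3 each; exact two-sided permutation p = 0.10).

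Spry1 changed more than any other member. Spry1 (Entrez 24063, chromosome 3) encodes the Sprouty protein whose promoter is shown first above. It stood at 128, 135 and 128 CPM in the WT-labelled libraries and at 20.8, 23.7 and 21.7 CPM in the KO-labelled ones. The lowest library of the first group was thus more than 100 CPM above the highest of the second. The fall was 5.89-fold, from 130 ± 4.1 to 22.1 ± 1.5 CPM (SDs over 3 libraries; log2 fold change -2.56, SE 0.050; adjusted p = 9.7e-15 by edgeR). A larger absolute log2 fold change was found in 7.37% of the genes tested, so Spry1 was among the more strongly changed genes of the table, whereas 20.5% exceeded Dusp4 and 43.9% exceeded Dusp1.

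The other Sproutys were modestly higher. Spry2 (Entrez 24064, chromosome 14), which binds the ubiquitin ligase Cbl and the adaptor Grb2, stood at 25.5, 21.5 and 22.5 CPM against 31.1, 30.9 and 30.4 CPM, a rise of 1.33-fold (log2 fold change 0.41, SE 0.065; adjusted p = 4.1e-05 by edgeR). Spry4 (Entrez 24066, chromosome 18), a Sprouty induced by FGF signalling in embryos, was low throughout, with 63, 92 and 111 reads against 173, 149 and 135 reads. These are 1.80, 2.61 and 3.19 CPM against 4.47, 3.85 and 3.52 CPM, so the groups stayed apart by a narrow margin. Spry4 rose 1.56-fold (log2 fold change 0.64, SE 0.19, 95% interval 0.22 to 1.06; adjusted p = 0.0073 by edgeR). Without Setdb2WT replicate 1, its lowest library, the log2 fold change was 0.43 (adjusted p = 0.042 by edgeR).

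Relative to its paralog, Spry1 fell further still. The log2 ratio of Spry1 to Spry2 was 2.30, 2.62 and 2.48 in the WT-labelled libraries and -0.57, -0.38 and -0.48 in the KO-labelled ones, a 7.69-fold shift (exact two-sided permutation p = 0.10). Per kilobase of exon too, Spry1 lay above Spry2 in every library of the first group and below it in every library of the second. The Spry2 to Spry4 ratio overlapped between the groups (difference of mean log2 ratios -0.16, with SDs of 0.45 and 0.14; exact two-sided permutation p = 0.90), so a difference between their changes was not detectable.

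Spred1 and Spred2 had the smallest log2 fold changes of the 10. Spred1 (Entrez 114715, chromosome 2), the gene mutated in Legius syndrome, stood at 78.6, 81.2 and 83.0 CPM against 72.8, 67.9 and 76.2 CPM, and Spred2 (Entrez 114716, chromosome 11) at 70.6, 71.8 and 66.5 CPM against 63.8, 66.9 and 62.5 CPM. The Spred2 libraries overlapped, and those of Spred1 were only a few CPM apart. The log2 fold changes were -0.16 (SE 0.045; adjusted p = 0.0043 by edgeR) for Spred1 and -0.11 (SE 0.044; adjusted p = 0.027 by edgeR) for Spred2. Neither call held under total-count scaling, where the values were -0.0086 for Spred1 and 0.041, the other direction, for Spred2 (adjusted p of 0.86 and 0.39 by edgeR). The Spred2 call was also lost without Setdb2WT replicate 2, Setdb2KO replicate 1 or Setdb2KO replicate 3 (adjusted p of 0.055, 0.087 and 0.089 by edgeR).

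Spred3 differed from them. Spred3 (Entrez 101809, chromosome 7), the third member of the family, stood at 30.8, 29.0 and 29.7 CPM against 38.4, 36.3 and 37.8 CPM, without overlap, a rise of 1.26-fold (log2 fold change 0.33, SE 0.051; adjusted p = 3.1e-05 by edgeR). The Spred2 to Spred3 ratio fell 1.36-fold (log2 ratios 1.21 ± 0.075 and 0.77 ± 0.087, SD, n = 3 each; exact two-sided permutation p = 0.10), and the Spred1 to Spred2 ratio overlapped between the groups (difference -0.051, with SDs of 0.089 and 0.13; exact two-sided permutation p = 0.70). Of the 7 pairs of related genes compared, 5 did not overlap; with adjustment over the 7 pairs their exact permutation p was 0.14, so none could pass 0.05.

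**Figure D2:**
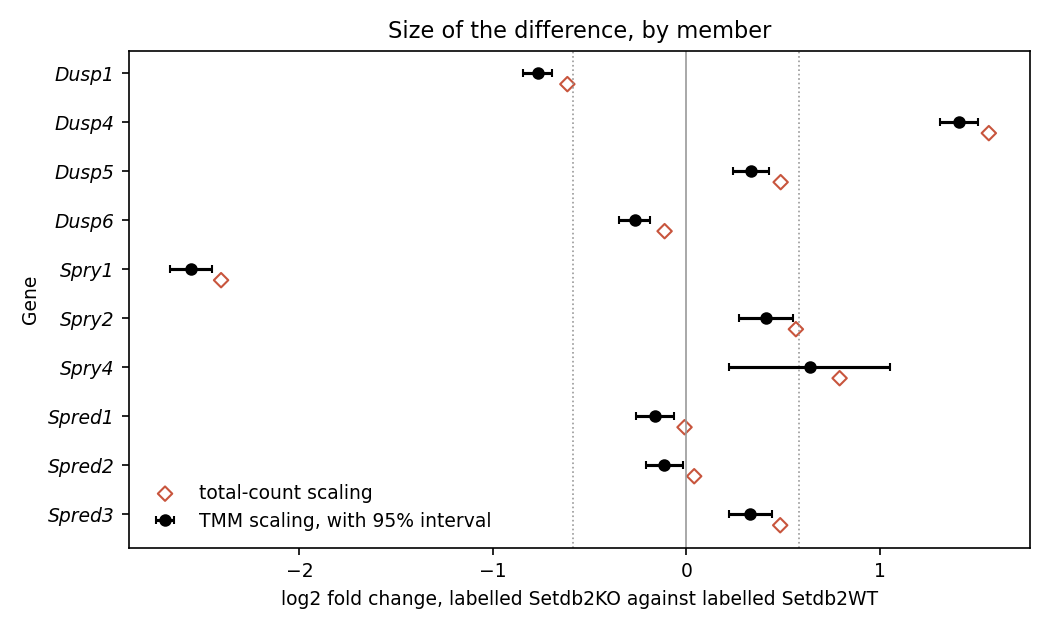
The log2 fold change of each member, labelled Setdb2KO against labelled Setdb2WT; black points and bars are edgeR's estimate and 95% interval with TMM scaling, open diamonds the estimate with total-count scaling, and dotted lines mark 1.5-fold. Spry1 at -2.56 and Dusp4 at 1.41 stand far from 0 under both scalings, and the Spred2 estimate crosses 0.

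Levels of different genes were compared per kilobase of exon. In the libraries labelled Setdb2WT, Dusp1 stood first at 208 ± 3.7 CPM per kb (SD, n = 3), above 97.8% of the 12558 tested genes that had a length. Spry1 followed at 44.8 ± 1.4, then Dusp5 at 26.9 ± 1.0 and Dusp6 at 24.4 ± 0.15 CPM per kb. Next in the order of per-kb levels came Spred2 (15.7 ± 0.63) and Dusp4 (14.7 ± 0.80), then Spred1 (11.9 ± 0.32) and Spry2 (11.1 ± 0.99), then Spred3 (7.35 ± 0.22), and Spry4 came last at 0.53 ± 0.15 CPM per kb. The libraries overlapped between Spred2 and Dusp4 and between Spred1 and Spry2, and all other neighbours in the order were apart. In the libraries labelled Setdb2KO the per-kb order began with Dusp1 (122 ± 5.9), Dusp4 (39.0 ± 1.3), Dusp5 (34.0 ± 1.3) and Dusp6 (20.3 ± 0.093). Spry2 (14.8 ± 0.18) and Spred2 (14.5 ± 0.51) followed with overlapping libraries, then Spred1 (10.7 ± 0.61), Spred3 (9.25 ± 0.26), Spry1 (7.60 ± 0.51) and Spry4 (0.83 ± 0.10 CPM per kb). Spry1 thus went from the second to the ninth place and Dusp4 from the sixth to the second.

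The make-up of the families shifted accordingly, on the same per-kb scale. Spry1 held 79.4% ± 1.7 of the summed level of the 3 Sproutys in the WT-labelled libraries and 32.7% ± 1.6 in the KO-labelled ones, and Spry2 held 19.7% ± 1.8 and 63.7% ± 1.3 (SD, n = 3 each). The Sprouty sum itself was 56.4 ± 0.90 against 23.2 ± 0.55 CPM per kb. Among the 4 phosphatases the share of Dusp1 was 75.9% ± 0.61 against 56.7% ± 0.91 and that of Dusp4 5.36% ± 0.27 against 18.1% ± 0.32, with sums of 274 ± 3.6 and 215 ± 8.0 CPM per kb. The SPRED sum was 34.9 ± 0.40 against 34.4 ± 0.32 CPM per kb, and the share of Spred3 was 21.0% ± 0.69 against 26.9% ± 0.53. Shares within a library do not depend on its scaling, and the sums were not tested.

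**Figure D3:**
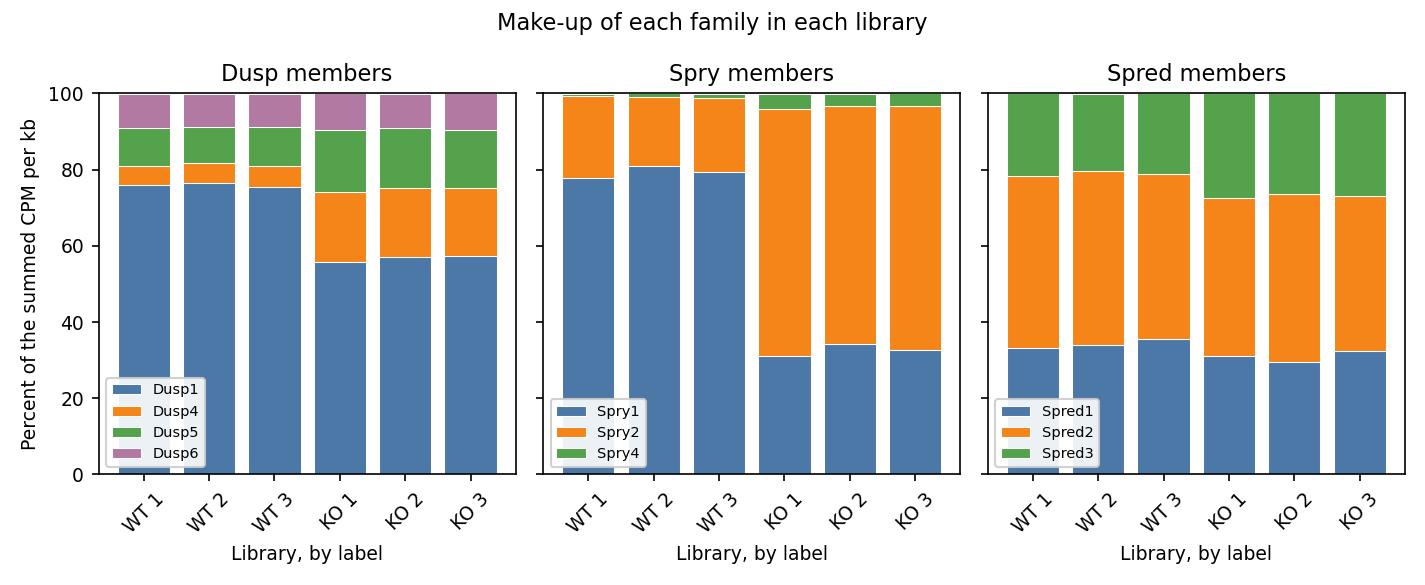
Percent of the summed CPM per kb of each family that each member held, 1 bar per library, for the Dusp, Spry and Spred members. The Spry1 share is near 79.4% in the 3 libraries labelled Setdb2WT and near 32.7% in the 3 labelled Setdb2KO, while the Spred shares move by a few points.

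The 10 genes lie on 10 different chromosomes (GRCm38, as for all chromosomes named here). ATTTA, the core of AU-rich elements found in many short-lived mRNAs, occurred 4 times in the 693-base 3′ UTR of Dusp1, or 5.77 times per kb, a density above that of 95.8% of 11363 tested genes with a 3′ UTR of at least 100 bases. The median density of those genes was 1.37 per kb. The densities of the other members lay between 0.84 per kb in Dusp6 and 2.77 per kb in Spred1. Spry1, the other gene that fell past the 1.5-fold limit with TMM scaling, had 1.91 per kb. Whether mRNA stability differed between the groups was not tested.

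The genes whose pattern was most like that of Spry1 and Dusp4 were sought by the root mean square difference in centred log2 CPM over the 6 libraries, among 11306 protein-coding genes. For Spry1 they were Ppa1 (difference 0.032), Rrm2 (0.048) and Insig1 (0.051), with log2 fold changes of -2.60, -2.51 and -2.50. For Dusp4 they were Hdac5 (0.026), Smim29 (0.028) and Grn (0.033), with log2 fold changes of 1.43, 1.45 and 1.38. Differences under 0.2 were found for 184 genes with Spry1 and 638 with Dusp4, so these neighbours are the nearest of many.

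The other MAP kinase phosphatases moved in both directions. Of the 8 that could be tested 5 passed as higher and 2 as lower, where 41.5% and 42.3% of all genes did, and their median log2 fold change was 0.42 (0.57 under total-count scaling). The count of higher genes ran from 4 to 6 over the alternatives. Dusp8 and Dusp16, which favour p38 and JNK, rose 2.95-fold from 30.9 ± 2.4 to 91.5 ± 1.0 CPM and 2.74-fold from 59.0 ± 2.4 to 162 ± 7.3 CPM (SD, n = 3 each). Dusp3, a small phosphatase without a kinase-docking domain, rose 1.71-fold. Dusp22, another small one, fell 3.08-fold from 26.8 ± 0.87 to 8.69 ± 0.74 CPM. Adjusted p ran from 5.9e-13 to 6.8e-11 for these genes by edgeR.

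Among other brakes on RAS and ERK, 11 of the 18 tested were called lower and 5 higher, where 42.3% and 41.5% of all genes were. The median of the list was -0.31 (9 lower and 6 higher, median -0.15, under total-count scaling). Il17rd, the Sef protein that blocks FGF signalling, went down 1.75-fold, from 32.0 ± 0.46 to 18.3 ± 1.3 CPM (SDs over 3 libraries). Lrig1, which promotes the loss of receptors from the surface, fell 2.69-fold, the ubiquitin ligase Cblb 3.24-fold from 324 ± 2.0 to 100 ± 3.5 CPM, and Rasa4, a RAS GTPase-activating protein, 3.91-fold. Nf1, which encodes the neurofibromin that SPRED proteins recruit, rose 2.03-fold from 67.0 ± 1.6 to 136 ± 2.2 CPM. Adjusted p for these genes ran from 1.2e-14 to 2.3e-08 by edgeR.

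The cascade itself had 11 of 25 tested genes higher and 10 lower, close to the shares of all genes (41.5% and 42.3%). The median of the list was 0.0085 (14 and 10, median 0.16, under total-count scaling). Mapk3, which encodes ERK1, fell 1.54-fold from 106 ± 2.4 to 68.5 ± 0.56 CPM, and Map2k2, one of the MEK kinases, 2.58-fold from 144 ± 2.2 to 56.0 ± 2.2 CPM (SD, n = 3 each). Ksr1, the scaffold that holds RAF and MEK together, fell 5.55-fold, and the adaptors Gab1 and Frs3 rose 2.28-fold and 2.91-fold, Frs3 from a low level of 2.21 ± 0.43 CPM. Adjusted p for these 5 changes ran from 3.2e-13 to 2.6e-07 by edgeR.

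Genes that follow ERK activity in many cells moved in both directions. Of the 32 that could be tested 19 passed as higher and 11 as lower, where 41.5% and 42.3% of all genes did. The median of the list was 0.31 (20 and 9, median 0.47, under total-count scaling). Ccnd1, which encodes cyclin D1, fell 5.86-fold from 564 ± 12 to 96.2 ± 3.6 CPM, Phlda1 2.36-fold from 129 ± 4.5 to 54.6 ± 1.1 CPM, and the ETS factor Etv4 1.83-fold from 38.3 ± 1.5 to 20.9 ± 0.95 CPM (SD, n = 3 each). Its relative Etv5 rose 1.61-fold from 4.68 ± 0.32 to 7.52 ± 0.070 CPM. The small MAF factors Maff and Mafk rose 4.81-fold and 2.41-fold. Egr1, an immediate early gene, stood at 422 ± 3.1 against 466 ± 12 CPM, a rise of 1.10-fold (adjusted p = 4.5e-04 by edgeR); adjusted p for the others named ran from 4.7e-16 to 3.1e-05.

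Upstream, 10 of 24 tested receptors and ligands were called higher and 12 lower, beside 41.5% and 42.3% of all genes. The median of the list was -0.28 (10 and 12, median -0.13, under total-count scaling). Gdnf, the ligand whose signal Sprouty1 restrains in the kidney bud, rose 6.28-fold from 4.02 ± 0.69 to 25.3 ± 1.3 CPM, while its receptor gene Ret was at 0.076 ± 0.11 against 0.061 ± 0.060 CPM and was not tested. Fgfr2, an FGF receptor, went down 4.37-fold, from 13.8 ± 0.85 to 3.16 ± 0.35 CPM (SDs over 3 libraries). Ddr2, a collagen receptor, rose 4.19-fold, and Fgf21 rose 3.43-fold from 0.56 ± 0.24 CPM. Adjusted p for these 4 genes ran from 1.1e-11 to 9.6e-05 by edgeR.

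Downstream of ERK, 8 of 20 tested substrates and effectors were called higher and 10 lower, beside 41.5% and 42.3% of all genes. The median of the list, -0.12, became 0.034 with total-count scaling, which called 10 higher and 7 lower. The ribosomal S6 kinase genes Rps6ka1, Rps6ka2 and Rps6ka4 fell 3.28-fold, 3.10-fold and 3.91-fold, the last from 139 ± 3.5 to 35.4 ± 1.5 CPM, and Crebbp, a histone acetyltransferase, rose 2.37-fold. In the p38 and JNK cascades, on which Dusp1 and Dusp4 also act, 9 of 21 tested genes were called higher and 11 lower. Over all genes these shares were 41.5% and 42.3%. The median of the p38 and JNK list was -0.24 (10 and 10, median -0.086, under total-count scaling). Map2k6, which activates p38, fell 7.84-fold from 16.7 ± 0.76 to 2.13 ± 0.13 CPM, Mapk11, which encodes p38 beta, 6.23-fold from 64.8 ± 1.9 to 10.4 ± 0.89 CPM, and Map3k5 from 20.3 ± 0.92 to 5.35 ± 0.63 CPM (SDs over 3 libraries). Mapkapk5, a kinase activated by p38, rose 1.91-fold. Adjusted p for the genes of this paragraph ran from 2.0e-14 to 1.0e-10 by edgeR.

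**Figure D4:**
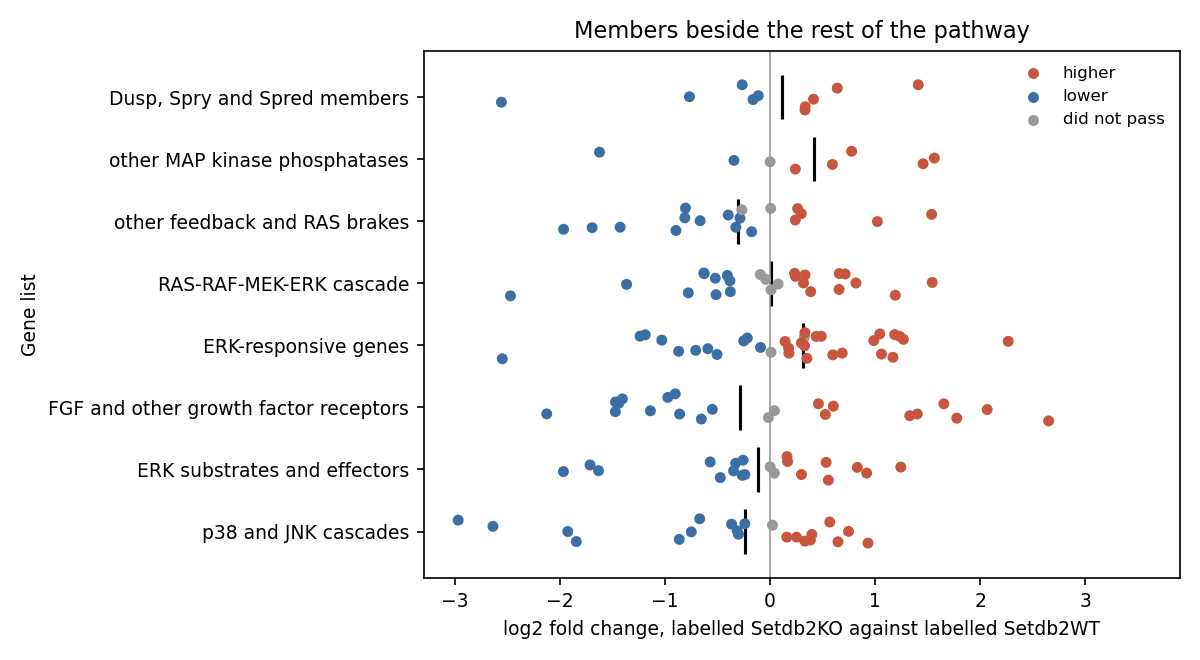
The log2 fold change of every tested gene of the members and of 7 further lists of the pathway, labelled Setdb2KO against labelled Setdb2WT; points are genes, red higher, blue lower and grey not past edgeR's test, and black bars are list medians. Every list holds genes on both sides of 0, and the medians lie between -0.31 and 0.42.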

How the data were processed

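Total RNA of 6 MPC5 samples was sequenced, 3 labelled Setdb2WT and 3 labelled Setdb2KO. The deposited values are raw read counts per gene, 1 column per library; the submitters' processing notes name fastp, HISAT, HTSeq and GRCm39. Their versions, the annotation and the strandedness of counting are not stated by any source used, so reads of overlapping antisense genes cannot be told apart. Each column name gave its genotype and replicate, and 0 columns were left over.

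Counts were tested with edgeR's quasi-likelihood test (edgeR 4.0.16, R 4.3.3; TMM, filterByExpr keeping its minimum count of 10, genotype alone in the model), a Benjamini-Hochberg threshold of 0.05 over every gene tested, and with glmTreat at 1.5-fold. Alternatives used other scalings, DESeq2 1.42.0, limma-voom 3.58.1, other filters, a replicate block and leaving out each library. Data were simulated with 3 libraries per group and 50 changed genes per fold size, drawn from well-read genes, among 13312 tested. There edgeR recovered 32 at 1.2-fold, 48 at 1.5-fold and all 50 at 2-fold, and called 14 unchanged genes. Few genes changed in the simulation, whereas 83.8% passed the test in the real data. It therefore does not show how the calls fare when most genes change. Log2 ratios of CPM used a prior of 0.5 CPM. Exon and 3′ UTR lengths came from GENCODE M21 (GRCm38), promoters from RefSeq (GRCm38.p6), where 8 of 10 members matched.

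Libraries of a group differed beyond sampling noise, by chi-square per degree of freedom. Pairs labelled Setdb2WT were at 2.55 to 2.71. Among those labelled Setdb2KO, replicates 1 and 3 were at 4.38, and replicate 2 was at 8.84 with replicate 1 and 15.7 with replicate 3. Without Setdb2KO replicate 2, the adjusted p by edgeR went from 7.0e-11 to 5.8e-21 for Dusp1, but from 0.0043 to 0.0088 for Spred1. Named genes were the members, genes fixed by name, up to 4 per pathway list with the largest change past the test and a mean of at least 1 CPM, and the 3 patterns nearest to the largest rise and the largest fall among the members. Members and lists were chosen with earlier results of these data known. Spry3, Tfpi2, Kit and Pdgfra were not analysed here, nor were the markers Kirrel1, Slc34a1, Umod and Adgre1; some genes that the naming rule takes are not reported here.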

Additional observations from a re-analysis of the deposited data

How the results depend on the processing

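Spry1, Dusp1, Dusp4, Dusp5, Dusp6, Spry2, Spry4 and Spred3 kept their direction and stayed past edgeR's threshold, or that of DESeq2 and limma-voom, under every alternative run. Total-count scaling left 3 members lower in place of 5, because Spred1 (log2 fold change -0.0086) did not pass and Spred2 turned to 0.041; it brought Setdb2 past the threshold, at 0.88. Spred2 also missed the threshold with DESeq2's size factors (-0.092; adjusted p = 0.059, edgeR), upper-quartile scaling (-0.095), the DESeq2 Wald test (-0.092) and a filter that asked for 1 CPM in 3 libraries (-0.091). With each library left out in turn, Spred2 ran from -0.16 to -0.091 and missed the threshold in 3 of the 6 fits, Spry4 ran from 0.43 to 0.82, and 4 or 5 members were lower. The replicate numbers did not pair the libraries (correlations of same-numbered deviations 0.001, -0.037 and -0.006), and with the replicate block the members still gave 5 higher and 5 lower, among 11190 genes called in all in place of 11318. Spry4, with 63 to 173 reads per library, had the fewest reads of the 10 members and the largest SE (0.19).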
